A study of Mus musculus with 407 samples.

Results

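The genes described here were the class IIa histone deacetylases Hdac4, Hdac5 and Hdac9, the corepressor Dach2, the myogenic regulatory factors Myog, Myod1 and Myf6, the transcription factor Mef2c and the stress gene Gadd45a. They were 9 of the 24458 gene symbols in the count tables and were taken by name, without a filter on their values but with earlier results of these data known. The study sequenced muscle RNA from C57BL/6J mice of both sexes that had aged without any treatment or genetic change, at 6 ages: 6 and 12 months, 18 and 21 months, 24 and 27 months. A total of 407 libraries were analysed from the diaphragm, gastrocnemius, soleus and tibialis anterior, with 6 to 10 libraries in each of the 48 groups of muscle, sex and age. In every muscle and sex the 6-month group held 8 libraries and the 27-month group 10. Each library came from 1 muscle of 1 mouse, but no label ties the muscles of a mouse together, and p-values measure the spread between these libraries. Mice of 1 age group were collected on 1 day, so age and collection day cannot be told apart.

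Contraction keeps class IIa histone deacetylases phosphorylated and out of the nucleus. When a muscle loses its nerve, Hdac4 is induced and enters the nucleus, where it represses Dach2, which in turn holds back Myog, the gene of myogenin. Myogenin then raises the acetylcholine receptor genes and the ubiquitin ligases of atrophy, and Hdac4 also raises Gadd45a, a small protein that remodels muscle nuclei in wasting. Myod1 and Myf6 belong to the same helix-loop-helix family as myogenin; Myod1 commits muscle precursors, and Myf6 is the family member most abundant in adult fibres. Mef2c is the DNA-binding partner that class IIa histone deacetylases keep silent. Whether these genes changed with age, and in which muscle, is the question that the design addresses.

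The 250 bases before the annotated start of 4 of these genes are shown because the helix-loop-helix factors described here bind the E-box, CANNTG. This 6-letter word reads the same class of letters on both strands, so 1 search covered both. The E-boxes are in capitals. The sequences are from RefSeq on GRCm38.p6 (mm10) and are written 5′ to 3′ on the strand of the gene.
Myog: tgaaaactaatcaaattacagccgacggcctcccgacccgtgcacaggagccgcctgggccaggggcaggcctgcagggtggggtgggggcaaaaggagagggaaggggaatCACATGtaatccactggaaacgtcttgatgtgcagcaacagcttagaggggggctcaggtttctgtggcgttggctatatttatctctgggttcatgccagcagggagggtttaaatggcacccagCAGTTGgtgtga
Gadd45a: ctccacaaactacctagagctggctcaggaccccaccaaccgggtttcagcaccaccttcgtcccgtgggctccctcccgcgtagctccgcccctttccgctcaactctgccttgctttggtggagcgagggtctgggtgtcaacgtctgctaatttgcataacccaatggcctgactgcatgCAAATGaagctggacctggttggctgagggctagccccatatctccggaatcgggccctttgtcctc
Hdac4: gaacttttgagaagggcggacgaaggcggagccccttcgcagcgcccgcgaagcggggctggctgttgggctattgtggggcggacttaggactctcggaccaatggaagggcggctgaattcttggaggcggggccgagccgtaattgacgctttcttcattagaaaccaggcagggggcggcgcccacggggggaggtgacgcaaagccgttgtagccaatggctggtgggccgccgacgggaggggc
Dach2: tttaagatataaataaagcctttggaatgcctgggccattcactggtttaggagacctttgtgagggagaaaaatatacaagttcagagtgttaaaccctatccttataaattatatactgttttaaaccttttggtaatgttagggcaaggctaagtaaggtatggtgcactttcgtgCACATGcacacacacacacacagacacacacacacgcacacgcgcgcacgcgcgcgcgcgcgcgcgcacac
The Myog window is chr1:134289754-134290003 on the plus strand and holds an E-box that begins 138 bases before the start and another that begins 12 bases before it. The Gadd45a window is chr6:67037408-67037657 on the minus strand and holds 1 E-box, 67 bases before the start. The Hdac4 window, chr1:92180342-92180591 on the minus strand, has no match, which says only that these letters are not in it. Dach2 has 2 annotated starts, and the window of the first, chrX:113297260-113297509 on the plus strand, holds 1 E-box, 71 bases before the start, while the window of the second, chrX:113298006-113298255, holds none. An E-box stood in 66.2% of the 32851 windows of this length in the table, which cover 27025 genes, so a match is a description of the letters and not of a bound site. Of the 9 genes, 7 had an entry, and Myod1 and Myf6 had none.

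Libraries held 38583802 to 300089909 counts on genes (median 72766895), and the second deepest held 104836980. Levels are given as CPM, counts scaled to the size of the library, on 1 scale for all libraries after TMM normalization (trimmed mean of M values). A few libraries stood apart in how counts depended on the GC content of a gene. The slope of a library on GC, taken against the median of the other libraries of its group, was beyond 0.5 log2 units per 10 percentage points in 8 libraries, 6 of the 98 from the diaphragm and 2 from the gastrocnemius. The other 399 lay between -0.40 and 0.30. Hdac4 and Hdac5 were at 1.52 to 9.37 and 0.600 to 5.24 CPM in the 6 diaphragm libraries. Each result of the diaphragm and gastrocnemius was therefore also computed without these 8 libraries. The transcripts of Acta1, Ckm, Ttn, Neb and Des, which define skeletal muscle, summed to between 33330 and 304000 CPM over the groups at 6 and 27 months, so that muscle RNA was abundant in every library of those ages; the sum was lowest in the diaphragm, with medians of 63380 to 83320 CPM against 162200 to 278500 in the other muscles. One male diaphragm library of 21 months held liver transcripts at 34360 CPM, and leaving it out changed no call of these genes. In bulk tissue, fewer cells of a type and less RNA per cell cannot be told apart.

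**Figure D1:**
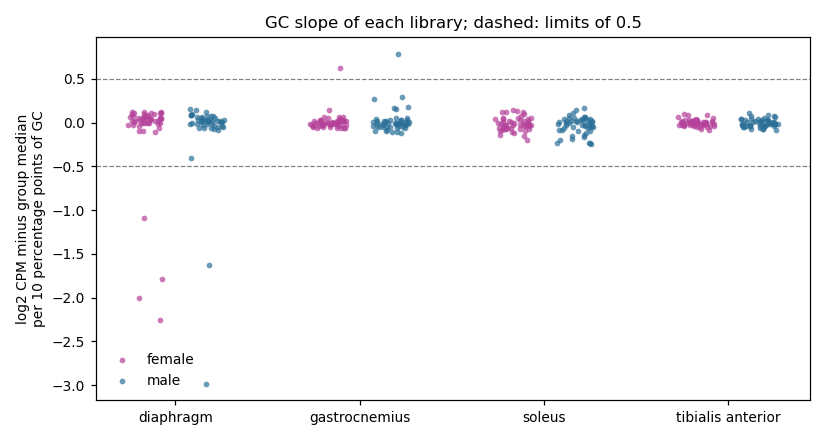
Slope of each library on the GC content of genes, in log2 units per 10 percentage points of GC, by muscle and sex; each point is 1 library and the dashed lines mark slopes of -0.5 and 0.5. The 8 libraries outside the lines have slopes from -2.98 to 0.788, 6 of them from the diaphragm.

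Each older age was compared with 6 months within a muscle and sex with the quasi-likelihood test of edgeR, p-values were adjusted by Benjamini and Hochberg's method over all genes tested, and a gene was called at an adjusted p below 0.05. Over 360 comparisons of a gene, an age, a muscle and a sex, 79 were called. Gadd45a was called in 14 of its 40 comparisons and Dach2 in 13, in both cases higher at the older age each time. Mef2c followed with 12 and Myf6 with 10, again all higher. Hdac4 was called in 9 and Myog in 5, all higher, and Myod1 in 3, of which 1 was higher. The paralogs of Hdac4 went other ways: Hdac5 was called in 4 comparisons, all lower, and Hdac9 in 9, of which 5 were higher and 4 lower. A change above 1.5-fold was found in all 14 calls of Gadd45a, all 5 of Myog, 7 of the 13 of Dach2, 2 of the 9 of Hdac4 and 1 each of Hdac9 and Myf6. At 27 months both limits together called 1, 3, 2 and 2 members in male diaphragm, gastrocnemius, soleus and tibialis anterior. The share of all genes was 5.6%, 5.41%, 1.19% and 4.1%. In the same female muscles 0, 3, 1 and 4 members were called, beside 1.24%, 4.98%, 4.13% and 7.01% of genes. In any comparison this share was at most 7.38%, in male diaphragm at 21 months.

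The counts of calls at an adjusted p below 0.05 are set beside the share of all tested genes called in the same comparison. At 12 months no member was called in any muscle or sex by edgeR, where between 0 and 2 had an unadjusted p below 0.05; the share of all genes called was 0.0622%, 1.08%, 0.117% and 0.338% in males (diaphragm, gastrocnemius, then soleus and tibialis anterior) and 0.0%, 0.579%, 0.221% and 0.527% in females. At 18 months no member was called in male muscle, where 0.199%, 2.99%, 0.489% and 1.93% of genes were, nor in female diaphragm, where 0.222% were. In the female mice of that age Mef2c was called in the gastrocnemius (9.6% of all genes) and the soleus (5.68%), and 4 members were called in the tibialis anterior (4.53%), 3 higher and 1 lower. At 21 months 0, 1, 0 and 3 members were called in the 4 male muscles in the same order, all higher, beside 10.7%, 10.2%, 1.37% and 6.78% of genes. In female mice 1, 5, 5 and 6 were called at that age, of which 0, 1, 1 and 2 were lower, beside 1.53%, 15.8%, 22.7% and 10.7%. At 24 months the male counts were 0, 3, 1 and 3, all higher, beside 1.27%, 14.6%, 4.46% and 15.4%, and the female counts 1, 5, 4 and 7, of which 0, 1, 1 and 2 were lower, beside 3.33%, 19.2%, 23.3% and 16.3%. At 27 months 1, 5, 3 and 4 members were called in male muscle, all higher, beside 8.65%, 23.3%, 2.85% and 17.8%. In female muscle 0, 5, 4 and 6 were called at 27 months, with Hdac5 in the tibialis anterior the single lower one, beside 1.61%, 29.3%, 18.8% and 21.9%. The diaphragm shares were not stable: without the 8 libraries with a GC slope apart 4.6%, 9.8% and 4.59% of genes were called in female diaphragm at 21, 24 and 27 months, and with the block of sample numbers 69 genes were called in male diaphragm at 27 months, against 1390. From 24 months the share of members called was above that of all genes in each hindlimb muscle of either sex. In male soleus at 24 months this rested on 1 call, that of Hdac9, which ended in 6 of 10 fits without the libraries of 1 replicate number. The members were chosen with earlier results of these data known, so these shares are a description and were not tested.

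**Figure D2:**
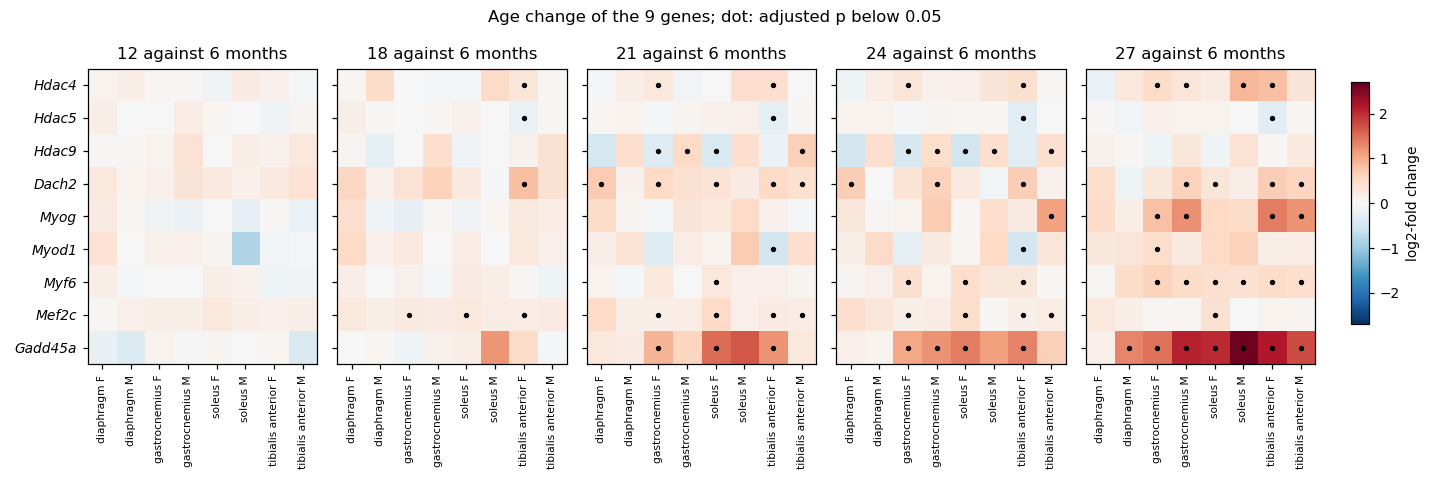
Change of the 9 genes at each older age against 6 months, as a log2-fold change, by muscle and sex; colour gives direction and size and a dot marks an adjusted p below 0.05. Gadd45a at 27 months is the row with the deepest red, and the diaphragm columns hold 3 dots.

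Gadd45a rose in all 3 hindlimb muscles of both sexes by 27 months and was the member with the largest increase in each of them. In male gastrocnemius the 8 libraries of 6 months lay at 6.30, 7.07 and 8.13 CPM (lowest, median and highest), and the 10 of 27 months at 15.3, 27.3 and 52.9. The groups did not overlap, and the log2-fold change was 2.08 ± 0.23 (SE; adjusted p = 1.09e-09, edgeR). In female gastrocnemius Gadd45a went from 7.95, 11.3 and 14.5 CPM to 18.8, 27.2 and 58.1, a log2-fold change of 1.47 ± 0.17 (adjusted p = 3.21e-09, edgeR), again without overlap. Female tibialis anterior moved further, from 5.46, 6.99 and 9.08 CPM to 16.3, 27.9 and 73.6, and its groups did not overlap either (2.17 ± 0.25, adjusted p = 5.25e-09, edgeR). In male tibialis anterior 9 of the 10 libraries of 27 months were above every library of 6 months, with 7.07, 27.5 and 59.3 CPM against 5.93, 7.68 and 10.03 (1.76 ± 0.25, adjusted p = 1.22e-06, edgeR).

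The soleus, a slow postural muscle, started from lower Gadd45a and ended with a wider spread. Male libraries lay at 2.15, 2.88 and 3.33 CPM at 6 months and at 4.03, 8.87 and 57.4 at 27 months. These did not overlap, and the log2-fold change of 2.63 ± 0.57 (adjusted p = 0.00361, edgeR) was the largest among the members in any comparison. Female soleus went from 2.32, 3.44 and 4.76 CPM to 2.80, 7.94 and 38.8 (2.01 ± 0.43, adjusted p = 0.000646, edgeR), and 8 of 10 libraries exceeded the 6-month group. The increase came at different ages in the 2 sexes by the calls: female gastrocnemius, soleus and tibialis anterior were called from 21 months, with log2-fold changes of 0.93, 1.499 and 1.22, and male gastrocnemius from 24 months, with 1.20. The female soleus calls of 21 and 24 months were lost with limma-voom and in 2 of 10 fits each without the libraries of 1 replicate number. The difference between the sexes in this change was tested at 21, 24 and 27 months and was not called in any muscle.

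Gadd45a in the diaphragm, the breathing muscle, depended on 1 library. In female diaphragm it lay at 2.57, 4.17 and 7.71 CPM at 6 months and 3.17, 4.53 and 8.94 at 27 months, a log2-fold change of 0.14 ± 0.20 (adjusted p = 0.879, edgeR). Male diaphragm went from 3.48, 4.43 and 6.45 CPM to 4.20, 5.53 and 70.3, and the log2-fold change of 1.32 ± 0.39 was called (adjusted p = 0.0287, edgeR). Replicate 8 held the 70.3 CPM and the next highest library 6.93. Without replicate 8 the change was 0.17 with an adjusted p of 0.659 (edgeR). Without the 8 libraries with a GC slope apart it was 1.47 (adjusted p = 0.0200, edgeR). In the fit of all 4 muscles of female mice the change of Gadd45a was smaller in the diaphragm than in the gastrocnemius (log2 difference -1.32, adjusted p = 0.0340, edgeR), as was that of Myf6 (-0.57, adjusted p = 0.0169), and these were 2 of 9 members beside 3.2% of genes. For the male diaphragm no member was called different from the gastrocnemius in this way (3.44% of genes), with 2 members at an unadjusted p below 0.05.

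**Figure D3:**
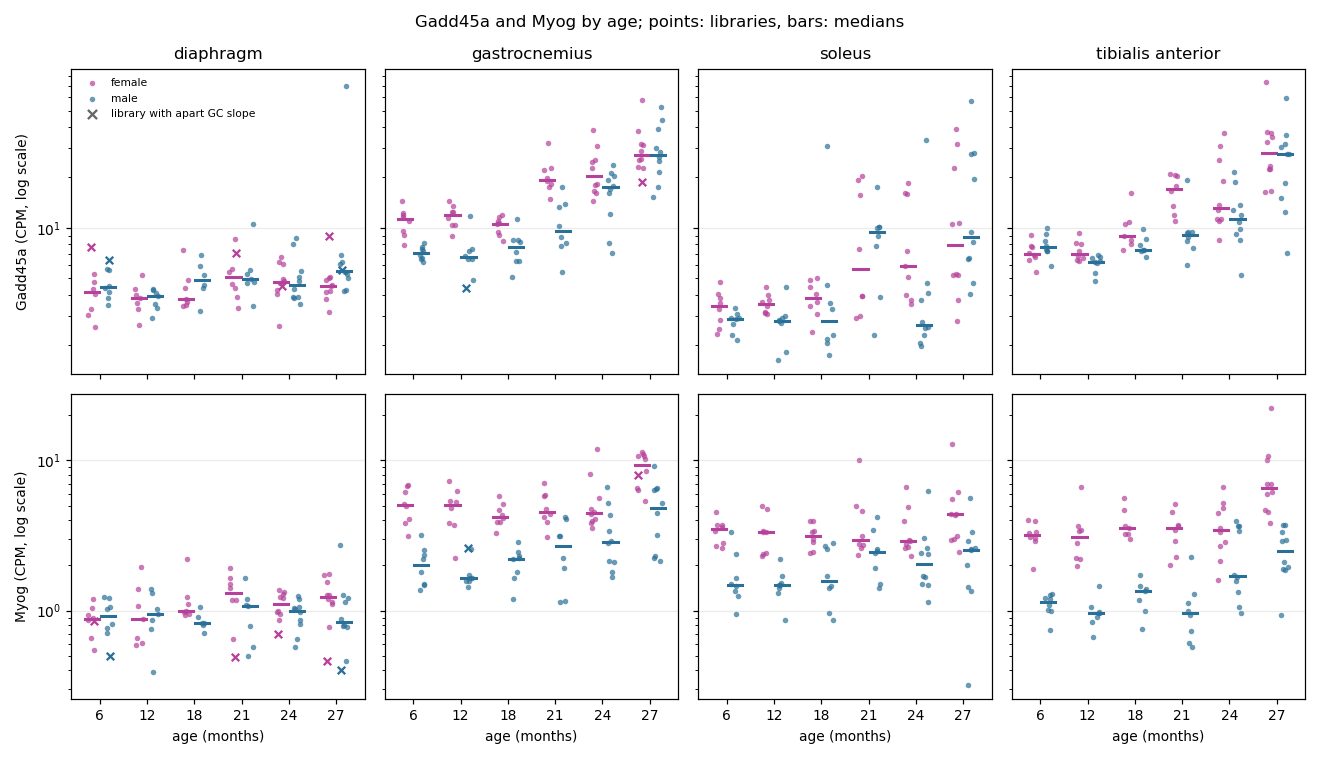
Gadd45a and Myog in every library by age, as CPM on a log scale, in the 4 muscles of male and female mice; points are libraries, crosses those with a GC slope apart, and the short bars are group medians. Gadd45a at 27 months lies above 15 CPM in every library of male and female gastrocnemius, where no library of 6 months passes 14.5 CPM.

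Myog, which encodes myogenin, rose in the gastrocnemius and tibialis anterior of both sexes at 27 months and was not called in the soleus or the diaphragm at any age. In female tibialis anterior it went from 1.90, 3.18 and 4.03 CPM to 3.81, 6.58 and 22.5, and 9 of 10 old libraries were above all young ones (log2-fold change 1.39 ± 0.26, adjusted p = 0.000102, edgeR). Male tibialis anterior went from 0.739, 1.14 and 1.30 CPM to 0.930, 2.51 and 3.73, also with 9 of 10 above (1.22 ± 0.27, adjusted p = 0.000820, edgeR). No other muscle had a Myog call before the oldest age; here the change was already 1.09 ± 0.26 at 24 months (adjusted p = 0.00359, edgeR). In the male gastrocnemius the values were 1.37, 2.0 and 3.20 CPM at 6 months and 2.14, 4.82 and 9.19 at 27 months, where 6 of 10 libraries exceeded the young group (1.23 ± 0.28, adjusted p = 0.000679, edgeR). Female gastrocnemius changed least of these, from 3.13, 5.05 and 6.86 CPM to 5.35, 9.37 and 11.4 (0.80 ± 0.20, adjusted p = 0.00215, edgeR). In the soleus the log2-fold changes at 27 months were 0.51 ± 0.32 in male and 0.54 ± 0.25 in female mice, with adjusted p of 0.508 and 0.130 (edgeR), so an increase of the size seen in the female gastrocnemius lies within their error.

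Hdac4, the deacetylase induced by loss of the nerve, rose in the gastrocnemius of both sexes, the female tibialis anterior and the male soleus, mostly by less than 1.5-fold. Female tibialis anterior showed the steadiest course: medians were 41.2, 44.9, 51.1, 55.0, 52.5 and 69.8 CPM from 6 to 27 months. At 27 months all 10 libraries, from 57.3 to 106 CPM, were above the 8 of 6 months, which reached 52.4, and the log2-fold change was 0.81 ± 0.09 (adjusted p = 6.33e-09, edgeR). Male tibialis anterior was not called at any age; at 27 months it spread from 36.6 to 132 CPM around a median of 57.1, and 5 of 10 libraries were above and 2 below all young ones (0.36 ± 0.14, adjusted p = 0.0645, edgeR). In male soleus Hdac4 went from 13.1, 22.8 and 26.3 CPM to 25.6, 37.4 and 77.0, with 9 of 10 libraries above the 6-month group (0.89 ± 0.15, adjusted p = 0.000175, edgeR). Female soleus held 19.3, 26.0 and 34.5 CPM at 6 months and 16.9, 29.1 and 47.5 at 27 months (0.22 ± 0.15, adjusted p = 0.337, edgeR). The male and female changes in these muscles were not called different in the test of the difference itself.

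In the gastrocnemius the increase of Hdac4 was smaller and the groups of 6 and 27 months overlapped, with 8 of 10 old libraries above all young ones in male and 4 of 10 in female mice. Male libraries went from 37.7, 49.3 and 55.0 CPM to 50.8, 60.3 and 78.0 (0.33 ± 0.09, adjusted p = 0.00346, edgeR) and female libraries from 33.7, 39.5 and 59.6 to 43.4, 55.5 and 70.4 (0.49 ± 0.08, adjusted p = 1.25e-05, edgeR). Among diaphragm libraries Hdac4 ranged from 1.52 to 38.3 CPM at 6 and 27 months, and the lowest values belonged to libraries with a GC slope apart. No change was called there, with log2-fold changes at 27 months of 0.27 ± 0.25 in male and -0.19 ± 0.29 in female mice. Without the 8 libraries the change of Hdac4 at 27 months in female diaphragm differed from that in the gastrocnemius, by -0.73 on the log2 scale (adjusted p = 0.00265, edgeR), which it did not with them (-0.67, adjusted p = 0.133, edgeR). Exons of Hdac4 share 132 of 8100 bases with Gm26720 on the other strand, those of Gadd45a 238 of 1223 with E230016M11Rik on the other strand, and those of Hdac5 111 of 5623 with Mir8101, in GENCODE vM21. The strand setting of the counting was not given in the sources used here, so reads of these overlaps cannot be assigned.

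Dach2, the repressor that Hdac4 holds down in denervated muscle, was higher and not lower with age wherever it was called. None of its calls remained with Bonferroni adjustment. In female tibialis anterior it rose early: medians went from 13 CPM at 6 months to 15.4 at 12 and 26.7 at 18, then stayed at 19.9, 21.0 and 21.5 at 21, 24 and 27 months. The log2-fold changes from 18 months on were 0.81, 0.53, 0.66 and 0.67, each with an SE of 0.16 or 0.17, and all were called. That of 21 months ended in 4 of 10 fits without the libraries of 1 replicate number. Male tibialis anterior was called at 21 months (0.42 ± 0.12, adjusted p = 0.0285, edgeR) and 27 months, when libraries lay at 15.4, 18.8 and 26.7 CPM against 11.1, 13.3 and 19.6 at 6 months (0.57 ± 0.12, adjusted p = 0.000441, edgeR). Only 4 of those 10 libraries were above the whole young group. The male call of 21 months ended in 5 of 10 fits without the libraries of 1 replicate number.

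In the other muscles the increase of Dach2 lay closer to the spread between libraries. Male gastrocnemius went from 2.55, 6.33 and 8.17 CPM at 6 months to 4.11, 9.44 and 13 at 27 months (0.63 ± 0.22, adjusted p = 0.0298, edgeR), a call that was lost with the replicate block and in 3 of 10 fits without the libraries of 1 replicate number. Female soleus went from 31.0, 36.8 and 49.6 CPM to 31.3, 50.9 and 63.7 (0.33 ± 0.11, adjusted p = 0.0221, edgeR). Female gastrocnemius was called at 21 months alone (0.53 ± 0.17, adjusted p = 0.0252, edgeR), and at 27 months its change was 0.31 ± 0.16 with all libraries and 0.40 without those with a GC slope apart (adjusted p = 0.147 and 0.0427, edgeR). Female diaphragm held 14.2, 24.7 and 44.8 CPM at 6 months, rose to medians of 44.6 and 47.0 at 21 and 24 months (0.69 ± 0.19 and 0.66 ± 0.18, adjusted p = 0.0473 and 0.0287, edgeR) and stood at 40.9 at 27 months. Leaving out the libraries of a single replicate number ended 7 and 5 of 10 times the calls of 21 and 24 months, with an adjusted p of up to 0.278, whereas without the 8 libraries with a GC slope apart both were stronger, at 0.77 and 0.79 (adjusted p = 0.0145 and 0.00480, edgeR). No age was called in male soleus or male diaphragm, where the 27-month log2-fold changes were 0.17 ± 0.12 and -0.14 ± 0.18.

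**Figure D4:**
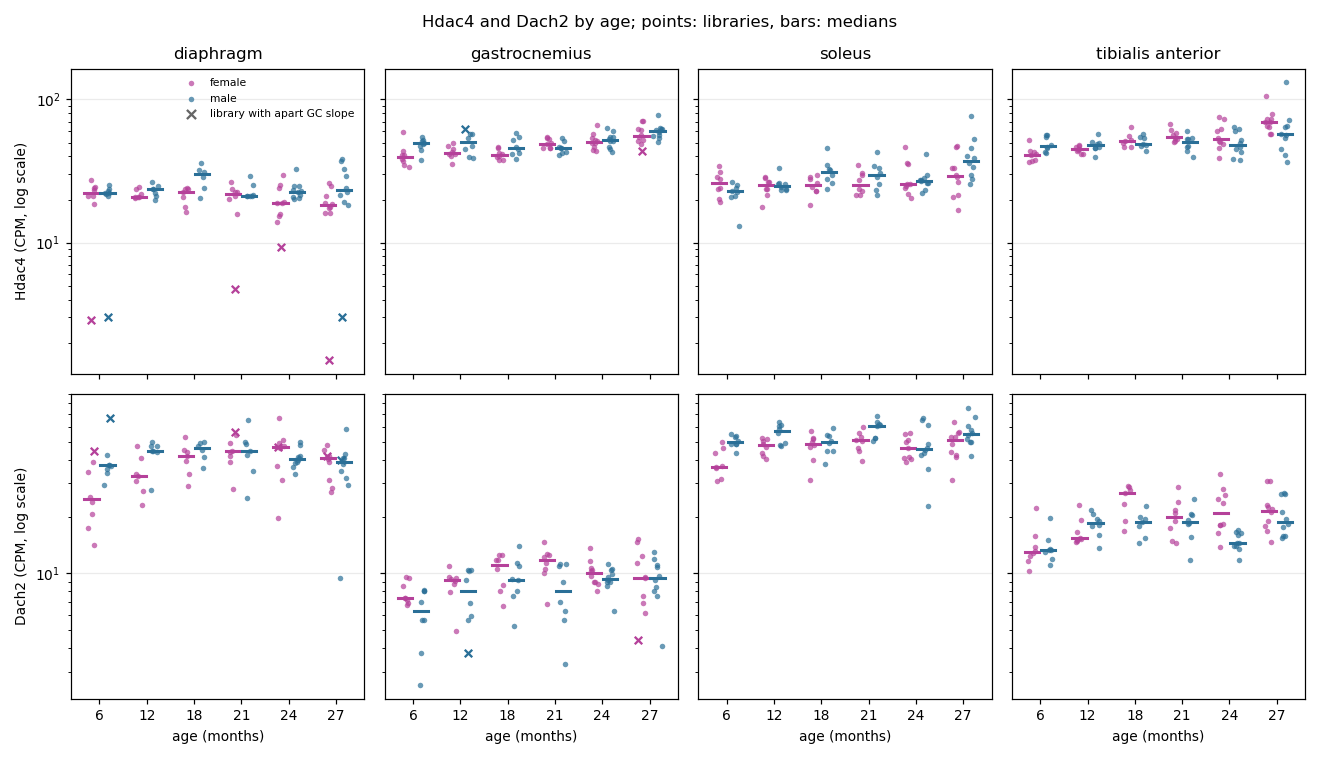
Hdac4 and Dach2 in every library by age, as CPM on a log scale, in the 4 muscles of male and female mice; points are libraries, crosses those with a GC slope apart, and the short bars are group medians. Hdac4 in female tibialis anterior climbs from a median of 41.2 to 69.8 CPM, and diaphragm libraries far below the others are those with a GC slope apart.

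Hdac9 was the member whose change with age differed most often between the sexes. In female gastrocnemius its median was 13.2 CPM at 6 months, 10.7 at 21, 9.59 at 24 and 13 at 27 months, and the fall at 21 and 24 months was called (-0.35 ± 0.11 and -0.44 ± 0.10, adjusted p = 0.0215 and 0.00152, edgeR). In male gastrocnemius the median went the other way, from 7.91 CPM to 12.5, 11.5 and 10.1 at the same ages (0.53 ± 0.14 and 0.47 ± 0.13 at 21 and 24 months, adjusted p = 0.00835 and 0.0115, edgeR). The female median was the higher one at 6 months and the lower one at 21 and 24 months; the levels at those later ages were not tested against each other. The difference of the changes at 21 and 24 months, female minus male, was -0.88 and -0.91 for gastrocnemius (adjusted p = 0.000440 and 0.000114, edgeR). For soleus it was -0.88 and -0.97 (adjusted p = 0.00228 and 0.000304, edgeR), and for tibialis anterior -0.80 and -0.74 (adjusted p = 0.00774 and 0.00866, edgeR). In the diaphragm it was -0.92 and -0.95 (adjusted p = 0.0553 and 0.0989, edgeR), and without the libraries with a GC slope apart the 21-month value was -0.92 with an adjusted p of 0.0350. It was called in no muscle at 27 months.

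The soleus and tibialis anterior gave the same picture of Hdac9 by value. Female soleus held medians of 26.5 CPM at 6 months and 19.7 at 24 months, with ranges of 17.6 to 40.9 and 16.9 to 24.9 that overlapped (-0.50 ± 0.12, adjusted p = 0.00191, edgeR). Male soleus rose from 18.4 to 25.1 CPM in the median between those ages, with ranges of 12.6 to 22.4 and 15.4 to 32.0 (0.46 ± 0.13, adjusted p = 0.0324, edgeR). In male tibialis anterior Hdac9 went from 6.62, 9.74 and 15.4 CPM at 6 months to 13.9, 15.9 and 16.8 at 21 months (0.63 ± 0.15, adjusted p = 0.00457, edgeR), while female tibialis anterior was not called (-0.16 ± 0.13 at 21 and -0.28 ± 0.13 at 24 months). Leaving out replicate 2 ended the calls of male gastrocnemius at 21 and 24 months, with adjusted p of 0.0505 and 0.0673 (edgeR), and the 24-month calls of male soleus and male tibialis anterior ended in 6 and 4 of 10 fits without the libraries of 1 replicate number. The 21-month call of female gastrocnemius ended without replicate 0 (adjusted p = 0.0629, edgeR).

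Hdac5, which like Hdac4 follows muscle activity, was lower with age in female tibialis anterior and in no other muscle by the calls. Its medians there were 49.7, 46.8, 44.5, 43.4, 40.1 and 40.3 CPM from 6 to 27 months. All 10 libraries of 27 months, at 34.8 to 42.0 CPM, were below the 8 of 6 months, at 45.5 to 54.3 (-0.31 ± 0.05, adjusted p = 6.24e-06, edgeR). Male tibialis anterior held 38.3, 41.3 and 45.4 CPM at 6 months and 38.3, 42.4 and 54.6 at 27 months (0.06 ± 0.05, adjusted p = 0.427, edgeR). The difference between the sexes was called at 21, 24 and 27 months, at -0.28, -0.30 and -0.37 on the log2 scale (adjusted p = 0.0125, 0.00318 and 0.000612, edgeR). At 6 months Hdac5 in this muscle was higher in female than in male mice by 0.25 on the log2 scale (adjusted p = 0.000182, edgeR), so that the medians of 40.3 and 42.4 CPM at 27 months lay closer than those at 6 months.

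Myod1, the determination factor, fell in female tibialis anterior at 21 and 24 months and was back at its early level at 27 months. Libraries there lay at 13.8, 18.2 and 28.1 CPM at 6 months, at 11.2, 12.6 and 20.9 at 21 months and at 12.2, 20.2 and 31.5 at 27 months. The log2-fold changes were -0.50 ± 0.15 and -0.50 ± 0.14 at 21 and 24 months (adjusted p = 0.0239 and 0.0123, edgeR) and 0.16 ± 0.14 at 27 months. Male tibialis anterior held medians of 15.3, 22.7, 19.5 and 18.3 CPM at 6, 21, 24 and 27 months, and the difference between the sexes was -0.97 and -0.82 at 21 and 24 months (adjusted p = 0.00451 and 0.0120, edgeR). By the calls, female gastrocnemius was the only place with higher Myod1, from 8.66, 12.0 and 16.5 CPM to 8.30, 18.8 and 24.3 at 27 months (0.46 ± 0.16, adjusted p = 0.0264, edgeR), a call that ended in 4 of 10 fits without the libraries of 1 replicate number. The falls of 21 and 24 months each ended in 3 of 10 such fits.

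**Figure D5:**
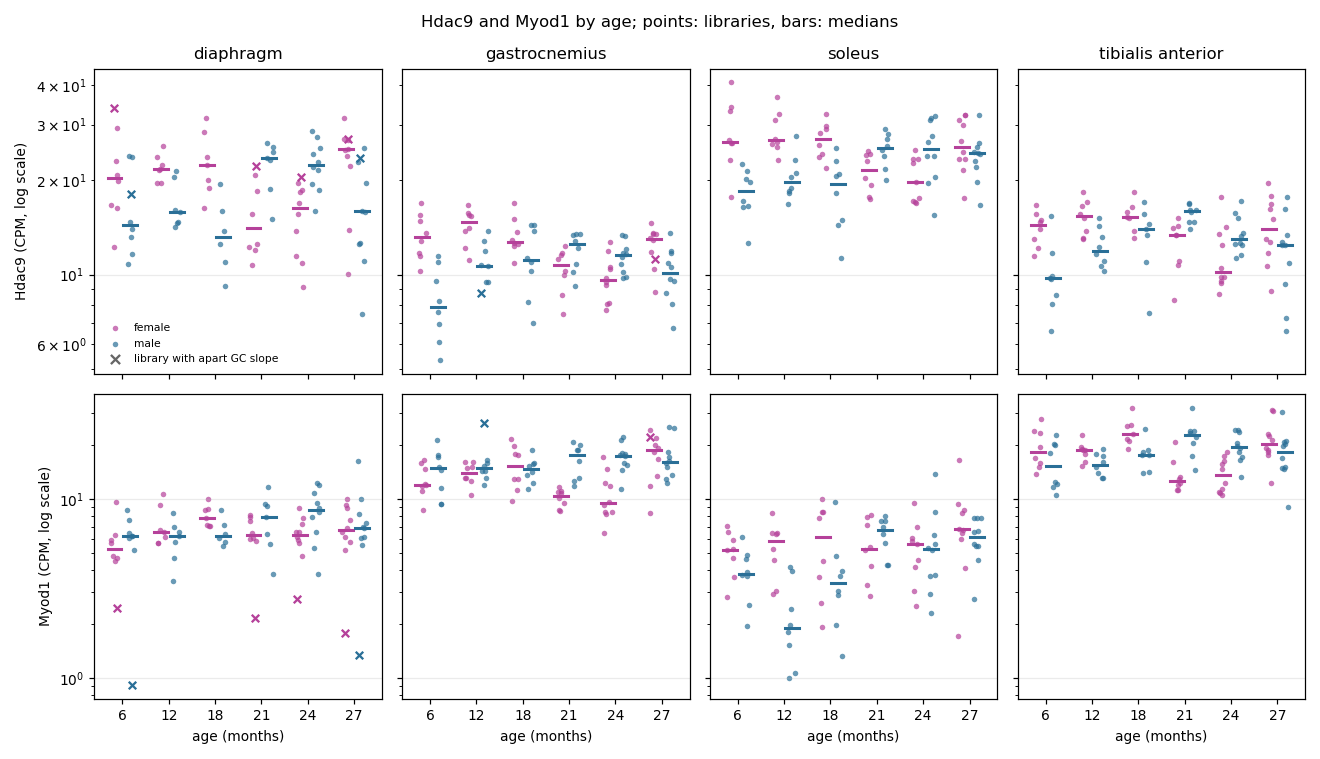
Hdac9 and Myod1 in every library by age, as CPM on a log scale, in the 4 muscles of male and female mice; points are libraries, crosses those with a GC slope apart, and the short bars are group medians. The Hdac9 medians of female gastrocnemius dip from 13.2 to 9.59 CPM at 24 months while those of male gastrocnemius stand at 7.91 and 11.5 CPM.

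Myog per Myod1 is a ratio of 2 genes with close roles, given here without a test. The median of log2 Myog minus log2 Myod1 in CPM went from -2.65 to -2.10 in male gastrocnemius between 6 and 27 months, from -3.85 to -3.06 in male tibialis anterior, from -1.40 to -0.97 in female gastrocnemius and from -2.66 to -1.61 in female tibialis anterior. In the soleus it went from -1.18 to -1.59 in male and from -0.53 to -0.66 in female mice, the opposite direction by the medians. In the diaphragm, where Myog was not called, it went from -2.67 to -2.34 in female and from -2.74 to -2.69 in male mice.

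Myf6 rose at 27 months in every hindlimb muscle of both sexes, by 0.41 to 0.60 on the log2 scale. Female tibialis anterior was the tightest: 8 libraries of 6 months at 44.9, 49.8 and 57.2 CPM and 10 of 27 months at 57.9, 68.6 and 91.4, without overlap (0.49 ± 0.08, adjusted p = 6.20e-06, edgeR). Female gastrocnemius went from 40.5, 47.3 and 62.1 CPM to 46.0, 69.8 and 92.6 (0.60 ± 0.10, adjusted p = 3.72e-06, edgeR), and female soleus from 35.6, 39.2 and 45.3 to 44.2, 49.3 and 69.3 (0.46 ± 0.10, adjusted p = 0.000983, edgeR). Male gastrocnemius, tibialis anterior and soleus changed by 0.50 ± 0.11, 0.46 ± 0.11 and 0.41 ± 0.12 (adjusted p = 0.000689, 0.00291 and 0.0395, edgeR). The last of these ended in 7 of 10 fits without the libraries of 1 replicate number, with an adjusted p of up to 0.205. Male diaphragm had a median of 21.9 CPM at 6 and 21.4 at 27 months, and replicate 8, the library with 70.3 CPM of Gadd45a, held 133.5 CPM of Myf6 where the next library held 29.9.

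Mef2c moved little and in mid-life. In female gastrocnemius its medians were 959, 1110, 1146, 1109, 1101 and 1011 CPM from 6 to 27 months, with calls at 18, 21 and 24 months (log2-fold changes of 0.23, 0.19 and 0.16, each with an SE of 0.06). Female tibialis anterior was called at the same ages (0.20, 0.23 and 0.17) and stood at 0.10 ± 0.04 at 27 months, and male tibialis anterior at 21 and 24 months (0.20 and 0.19). The male tibialis anterior calls ended in 8 and 5 of 10 fits without the libraries of 1 replicate number, and those of female gastrocnemius at 21 and 24 months in 5 and 7. Female soleus kept the increase: libraries lay at 705, 925 and 1109 CPM at 6 months and at 987, 1234 and 1361 at 27 months (0.42 ± 0.08, adjusted p = 0.000114, edgeR), with 8 of 10 above the young group. In the soleus the change at 24 months was larger in female than in male mice, by 0.44 on the log2 scale (adjusted p = 0.0240, edgeR). Summed transcripts of the muscle-defining genes also rose in female soleus, from a median of 162200 to 214200 CPM, and their part in the change of Mef2c was not tested.

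Beside these members, the difference of the age change between the sexes was called for 0 of 9 in the diaphragm at 21, 24 and 27 months (2.28%, 0.229% and 0.0% of genes by edgeR), where 2 had an unadjusted p below 0.05 each time. In the gastrocnemius 1, 1 and 0 were called (4.28%, 3.94% and 1.6%), with 2 at an unadjusted p below 0.05 at 27 months. The soleus had 1, 2 and 0 (3.67%, 9.18% and 0.855%), with 3 below 0.05 unadjusted at 27 months, and the tibialis anterior 3, 3 and 1 (4.42%, 6.14% and 1.73%). The change at 27 months in the soleus and tibialis anterior was called different from the gastrocnemius for no member by edgeR in male (0.594% and 0.0% of genes, with 1 and 0 members at an unadjusted p below 0.05) or female mice (5.51% and 0.57%, with 1 and 0). These contrasts came from the fit of all muscles of a sex. Its error included the spread of diaphragm libraries, where Hdac4 and Hdac5 were very low in those with a GC slope apart. Without the libraries with a GC slope apart, more genes were called in each of these contrasts. In female mice more pairs of member and muscle, diaphragm included, were then called. The lack of a member call therefore does not show that the changes were equal.

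In young mice of 6 months Myog was higher in females than in males in all 3 hindlimb muscles. The log2 difference, female minus male, was 1.33 ± 0.26 for gastrocnemius, 0.98 ± 0.31 for soleus and 1.53 ± 0.29 for tibialis anterior (adjusted p = 3.1e-05, 0.0313 and 2.9e-05, edgeR). In the tibialis anterior the 8 female libraries, at 1.90 to 4.03 CPM, did not overlap the 8 male ones, at 0.739 to 1.30. Hdac9 was higher in females by 0.71, 0.66 and 0.49 in the same muscles (adjusted p of 5.36e-06, 0.000307 and 0.0100, edgeR). Smaller differences were called for Gadd45a in the gastrocnemius (0.64), Hdac5 and Mef2c in the tibialis anterior (0.25 and 0.20), Dach2 in the soleus (-0.35) and Myf6 in the gastrocnemius and tibialis anterior (-0.43 and -0.34). Altogether 0, 4, 3 and 5 of 9 members differed in level in diaphragm, gastrocnemius, soleus and tibialis anterior, beside 0.512%, 19.8%, 8.41% and 13.6% of genes; in the diaphragm 2 had an unadjusted p below 0.05.

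The levels of the members at 6 months also differed between muscles. So did those of 14.2% to 74.3% of all genes, depending on the pair of muscles and the sex. The medians of Dach2 were 36.8 CPM in soleus, 24.7 in diaphragm, 13 in tibialis anterior and 7.39 in gastrocnemius of female mice, and 49.8, 37.5, 13.3 and 6.33 in the same order in male mice. Each step of that order was called in both sexes, and the log2 difference of gastrocnemius minus soleus was -2.32 ± 0.17 in female and -3.04 ± 0.19 in male mice. Hdac9 had nearly the same order in female mice, with 26.5, 20.3, 14.4 and 13.2 CPM, of which tibialis anterior and gastrocnemius were not called different (0.08 in size on the log2 scale, SE 0.15). In male mice soleus and diaphragm (18.4 and 14.4 CPM) were not called different either, nor were tibialis anterior and gastrocnemius (9.74 and 7.91).

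Hdac4 ran the other way, high in the mixed and fast hindlimb muscles. Female medians were 41.2 CPM in tibialis anterior, 39.5 in gastrocnemius, 26.0 in soleus and 22.1 in diaphragm, and male medians 47.3, 49.3, 22.8 and 22.1. Tibialis anterior and gastrocnemius were not called different, nor were soleus and diaphragm, whereas each of the first pair differed from each of the second. Hdac5 was lower in the diaphragm (31.3 and 34.7 CPM in female and male mice) than in the other muscles (39.5 to 49.7), which were not called different from each other. The diaphragm groups of 6 months include a library with a GC slope apart in each sex. It held 2.50 and 0.600 CPM of Hdac5 and 2.88 and 3.00 of Hdac4 in female and male mice. The level tests printed here include these libraries. Myod1 followed the fast muscles with 18.2 and 15.3 CPM in female and male tibialis anterior, 12.0 and 14.8 in gastrocnemius, 5.22 and 6.22 in diaphragm and 5.20 and 3.82 in soleus; the last pair of muscles was not called different in either sex. Myog was lowest in the diaphragm, at 0.875 CPM in female and 0.920 in male mice, and highest in the gastrocnemius at 5.05 and 2.0. In male mice its neighbours in the order, gastrocnemius and soleus, soleus and tibialis anterior, tibialis anterior and diaphragm, were not called different.

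Myf6 and Mef2c had their lowest levels in the diaphragm as well. Myf6 stood at 18.1 and 21.9 CPM there in female and male mice, at 39.2 and 45.0 in soleus and at 47.3 to 66.0 in gastrocnemius and tibialis anterior, which were not called different from each other. Mef2c stood at 386 and 436 CPM in diaphragm against 915 to 1152 elsewhere. Gadd45a was at 11.3 and 6.99 CPM in female gastrocnemius and tibialis anterior, 4.17 in diaphragm and 3.44 in soleus. The male values were 7.07, 7.68, 4.43 and 2.88. Neither the first nor the last pair was called different in either sex. In male mice diaphragm and gastrocnemius were not called different either (log2 difference -0.68, adjusted p = 0.123, edgeR). Of the 9 members, 9, 6, 9, 7, 3 and 7 differed in level in female mice between diaphragm and gastrocnemius, diaphragm and soleus, diaphragm and tibialis anterior, gastrocnemius and soleus, gastrocnemius and tibialis anterior, and soleus and tibialis anterior, beside 71.5%, 59.4%, 74.3%, 49.2%, 17.2% and 55.4% of genes. The male counts were 8, 5, 8, 7, 2 and 6, beside 64.1%, 52.5%, 65.6%, 45.1%, 14.2% and 45.4%. For diaphragm and soleus the female and male counts, 6 and 5 of 9, lay near the shares of all genes.

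The course over the 6 ages was also described by the better of a line and a logistic curve of log2 CPM on the logarithm of age, where its Bayesian information criterion (BIC) was more than 6 below that of a constant. Of 72 combinations of gene, muscle and sex, 28 had such a curve. The counts of members were 0, 5, 4 and 3 of 9 in male diaphragm, gastrocnemius, then soleus and tibialis anterior, beside 6.72%, 19.2%, 4.73% and 14.0% of 14182 genes, and 2, 5, 3 and 6 in female mice, beside 5.08%, 24.0%, 20.6% and 17.3%. Gadd45a had one in all 6 hindlimb combinations. It was late, with an inflection above 21 months, in male gastrocnemius and tibialis anterior and female tibialis anterior. Those inflections stood at 27.0 months, the end of the range searched, so their age was not located. The curve was mid-life at 20.5 months in female gastrocnemius, and a rising line in the soleus of both sexes. Myog had a late rise in gastrocnemius and tibialis anterior of both sexes, with inflections between 23.25 and 27.0 months, the end of the range searched. Myf6 rose late in the same 4 places, in male tibialis anterior also at 27.0 months, and along a line in female soleus. Hdac4 had a late rise in the gastrocnemius of both sexes, at 24.25 and 21.25 months, and a line in male soleus and female tibialis anterior. Dach2 and Mef2c, where they had a curve, had a rising line, Hdac5 a falling line in female tibialis anterior, Hdac9 a mid-life fall at 18.75 months in female gastrocnemius and a rising line in male soleus, and Myod1 a mid-life rise in male soleus. Stricter BIC margins of 10 and 4 ended 7 of the 28 curves: Gadd45a in the soleus of both sexes, Hdac4 and Dach2 in male gastrocnemius, Hdac9 in male soleus and female gastrocnemius, and Mef2c in female diaphragm. With age in months in place of its logarithm, 2 were lost (Dach2 in male gastrocnemius and Mef2c in female diaphragm), 1 was gained, and 4 late rises became lines (Hdac4 and Myf6 in female gastrocnemius, Myog in male gastrocnemius and Gadd45a in female tibialis anterior), so the age of those rises depends on the scale. Without the libraries with a GC slope apart the Dach2 curve of male gastrocnemius was lost and the inflection of Hdac4 in female gastrocnemius lay at 23.5 months.

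Whether mice of 1 age with more of 1 member also had more of another was asked for 6 pairs that follow the denervation pathway, in each muscle and sex, on log2 CPM centred on the age mean. There were 48 such correlations over 48 to 52 libraries, with permutation within ages (two-sided, 100000 resamples) and Benjamini-Hochberg adjustment over the 48. Genes measured in the same library share its depth and GC slope, and no background of other gene pairs is given here. Hdac4 and Gadd45a were correlated in the 3 hindlimb muscles of both sexes, with r from 0.48 in female tibialis anterior to 0.62 in female soleus (adjusted permutation p of 0.0174 and 0.00048). Spearman's rho was 0.30 to 0.58 in these 6, with a highest adjusted permutation p of 0.124 in female tibialis anterior. Without the 2 libraries farthest from the median of Hdac4, r was 0.31 to 0.61 in them, and the adjusted permutation p was 0.182 in female tibialis anterior, where the relation rests on those libraries. In female diaphragm r was -0.38 (adjusted permutation p = 0.0404), with a rho of 0.07 (0.672); without the 2 farthest libraries r was 0.11 (0.640) and without those with a GC slope apart 0.44 (0.0120).

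Myog and Gadd45a were correlated in 5 of 8 muscles and sexes, most in the soleus (r = 0.65 in male and 0.68 in female mice, rho 0.58 and 0.64, adjusted permutation p = 0.00012 for each r). Without the 2 libraries farthest from the median of Myog these were 0.56 and 0.57 (adjusted permutation p = 0.00160 and 0.00173). The other 3 were male gastrocnemius (r = 0.42) and female gastrocnemius and tibialis anterior (0.48 and 0.53), of which only the last was still below 0.05 without the 2 farthest libraries (0.47, adjusted permutation p = 0.0267). Myod1 and Myog were correlated in 7, with r between 0.35 and 0.70, and the exception was male tibialis anterior (0.11). Without the 2 farthest libraries 4 of these 7 were below 0.05, and without those with a GC slope apart 7 were, with r of at most 0.56. Hdac4 and Myog were correlated in 4 (male diaphragm and gastrocnemius, female diaphragm and tibialis anterior). Both diaphragm calls were lost without the libraries with a GC slope apart (r = 0.21 and 0.26 in male and female mice, adjusted permutation p = 0.324 and 0.0821), which left 2. Without the 2 farthest libraries 3 correlations were below 0.05. These were male gastrocnemius, female diaphragm and female soleus (adjusted permutation p = 0.0466, 0.00312 and 0.0466), the last of which was not among the 4. Of the 4, only male gastrocnemius was below 0.05 in both settings. The step in between gave less: Hdac4 and Dach2 had r between -0.35 and 0.22, with 1 negative call in female soleus (r = -0.35, rho -0.32, adjusted permutation p = 0.0465 and 0.0734), and Dach2 and Myog had r between -0.36 and 0.23, with 1 negative call in male soleus (r = -0.36, rho -0.30, adjusted permutation p = 0.0404 and 0.0872). Neither was below 0.05 without the 2 farthest libraries (0.0927 and 0.303). In female diaphragm without the libraries with a GC slope apart, r of Hdac4 and Dach2 was 0.62 (adjusted permutation p = 0.00036) and r of Dach2 and Myog 0.42 (0.00929).

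The genes whose level followed a member most closely among mice of 1 age were listed by the mean r over the 8 muscles and sexes, among 14182 genes tested in all 8; this is a description, and libraries of a muscle and sex share their depth and GC slope. For Gadd45a the first was Myf6, with a mean r of 0.60, followed by Atp13a3, Tnfrsf23, Runx1 and Ctsl. For Myog the closest included Rrad, the acetylcholine receptor subunits Chrnb1 and Chrnd, and the cell cycle inhibitor Cdkn1a. For Hdac4 they were Zmiz1 (0.64), Cacng1, Sqstm1, Grina and Sorbs3. Without the libraries with a GC slope apart, Hdac4 was followed by Zmiz1 (0.55), Gadd45a (0.52) and Musk (0.51), and Gadd45a came second for Myog (0.49). Dach2 was followed by Acat1 (0.68), Cul5 and Fundc2 and Myod1 by Plekhh3, Ahdc1 and Tnk2.

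The denervation response was followed with a list of 14 other genes of the neuromuscular junction, embryonic myosins and atrophy. At 27 months 12 of 14 rose in male gastrocnemius, 11 in female gastrocnemius, 11 in male and 10 in female tibialis anterior, 9 in male and 8 in female soleus, 4 in male and 1 in female diaphragm; 2 fell in female soleus and 1 in male tibialis anterior. The median log2-fold change of the list was 0.92 and 0.91 in male and female gastrocnemius, 0.76 and 0.78 in tibialis anterior, 0.65 and 0.60 in soleus and 0.29 and -0.12 in diaphragm, where the median of all genes lay between -0.03 and 0.03. Among the 3 genes with the largest change in every hindlimb muscle were Gdf5, a ligand of the bone morphogenetic protein family that rises after denervation, and Chrng, the fetal acetylcholine receptor subunit. In male gastrocnemius their log2-fold changes were 4.77 ± 0.53 for Gdf5 and 4.35 ± 0.70 for Chrng (adjusted p = 1.66e-09 and 4.87e-06, edgeR). In female tibialis anterior they were 3.96 ± 0.48 for Gdf5 and 5.65 ± 0.87 for Chrng (adjusted p = 1.77e-08 and 3.34e-06, edgeR). The female diaphragm call was Myh3, the embryonic myosin (2.29 ± 0.56, adjusted p = 0.0187, edgeR).

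The partners of class IIa histone deacetylases and Mef2 gave smaller changes in both directions. Of 15 or 16 tested, 4 rose and 2 fell in male gastrocnemius, 2 rose and 3 fell in female gastrocnemius, 4 rose and 1 fell in male and 3 and 2 in female tibialis anterior, 1 rose in male and 4 in female soleus, and 0 were called in the diaphragm of either sex by edgeR. In female gastrocnemius 5 of 15 is close to the 29.3% of all genes called there. Every list here stands beside the same shares of all genes called at 27 months. These were 8.65%, 23.3%, 2.85% and 17.8% in male diaphragm, gastrocnemius, soleus and tibialis anterior. In the same female muscles they were 1.61%, 29.3%, 18.8% and 21.9%. Camk2b, a calcium kinase that sends these deacetylases out of the nucleus, rose by 0.55 ± 0.05 in female gastrocnemius (adjusted p = 6.94e-13, edgeR) and 0.34 ± 0.04 in female tibialis anterior (3.54e-08). Sik1, another kinase of the deacetylases, rose in male gastrocnemius and tibialis anterior (1.00 ± 0.29 and 1.05 ± 0.36, adjusted p = 0.00874 and 0.0359, edgeR). Of 10 genes of the Gadd45 family and stress response, 5 rose and 2 fell in female gastrocnemius and 0 to 3 rose and 0 to 2 fell elsewhere; Cdkn1a, the p21 cell cycle inhibitor, led with log2-fold changes of 1.88 ± 0.24 in male gastrocnemius and 1.80 ± 0.15 in female gastrocnemius (adjusted p = 3.49e-08 and 2.97e-13, edgeR), and of the paralogs Gadd45g fell in female gastrocnemius (-0.97 ± 0.23) and Gadd45b in female tibialis anterior (-0.48 ± 0.16).

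Of the myogenic factors and partners, 15 or 16 tested, 0 to 2 rose and 0 to 6 fell, with a list median between -0.20 and 0.04. Pax7, the satellite cell factor, fell in female tibialis anterior (-1.12 ± 0.18, adjusted p = 7.04e-06, edgeR), male tibialis anterior and male gastrocnemius (-0.65 and -0.56), and Myf5 fell in male diaphragm (-1.17 ± 0.15, adjusted p = 2.58e-06, edgeR). Since Myod1 and Myog are also expressed in satellite cells and their progeny, the 7 satellite cell markers are given beside them. In each muscle and sex 1 to 5 of the 7 fell, and 1 rose, Vcam1 in male diaphragm (1.06). In female gastrocnemius 2 of 7 fell, close to the 29.3% of all genes called there, and in female soleus 2 of 7 beside 18.8%. Their summed level went from 35.1 to 30.8 CPM in the median in female tibialis anterior, from 36.1 to 27.4 in male tibialis anterior, from 35.2 to 28.2 in male gastrocnemius and from 37.2 to 35.8 in female gastrocnemius, where Myog was higher at 27 months; none of the 7 was at 0 throughout, and their part in the changes of Myog and Myod1 was not tested. Of the 8 slow fibre markers, 7 rose in female and 5 in male gastrocnemius, 4 rose and 1 fell in female tibialis anterior, 1 rose in female soleus and 0 were called in male soleus, male tibialis anterior or the diaphragm; of the 11 fast fibre markers, 9 fell in female and 8 in male gastrocnemius and at most 1 elsewhere.

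The other marker lists were read for cells and tissues that could enter a dissected muscle. Their counts stand beside the shares of all genes called at 27 months given above. Of 6 fibroblast markers 2 to 6 fell and none rose at 27 months in each muscle and sex, and of 6 macrophage markers 3 rose in female tibialis anterior, 3 fell in female soleus and at most 1 was called elsewhere. Of 7 lymphocyte markers 5 rose in male diaphragm and at most 2 of the 4 tested in any hindlimb muscle. Schwann cell markers, 7 in all, fell in 3 cases each in male diaphragm and male gastrocnemius and in 1 case each in female diaphragm and female soleus, and rose in 2 cases in male and 1 in female tibialis anterior. Of 5 endothelial markers at most 2, of 5 adipocyte markers at most 2 and of 5 blood markers at most 2 were called in any muscle and sex. All 7 liver markers rose in female tibialis anterior, where their sum went from a median of 8.94 to 71.1 CPM and reached 606, and none was called in the other muscles and sexes. The part of these transcripts in the changes of the members was not tested.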

How the data were processed

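The authors deposited 1 table of raw read counts per gene for each library. They prepared strand-specific total RNA libraries after removal of ribosomal RNA and counted read pairs with ArrayStudio on mm10, using their own RefSeq-based gene model. The values are not normalized, and the version of ArrayStudio was not given in the sources used here. Groups of muscle, sex and age were taken from the sample labels. Where a symbol stood on several rows, the row with the largest total was kept, which left out 633 of 25091 rows and 0.0335% of the counts. No member stood on more than 1 row, and no 2 libraries were identical.

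One model was fitted per muscle and sex, over all 6 ages (edgeR 4.0.16 in R 4.3.3; TMM, filterByExpr, quasi-likelihood test, Benjamini-Hochberg adjustment over all genes of the fit). Differences between sexes were tested in a fit of both sexes of a muscle and differences between muscles in a fit of the 4 muscles of a sex. Standard errors were derived from the F statistic. Printed CPM stand on 1 TMM scale over all 407 libraries, while fold changes come from their own fits, so the ratio of 2 medians need not equal a fold change. Curves used log2 CPM with a prior count of 0.5, and BIC margins of 6 against the constant and 2 against the line. At these depths the spread between mice, more than counting error, sets the precision. The fits, curves and correlations were tested on simulated data first. Alternatives were limma-voom (limma 3.58.1), DESeq2 1.42.0, other scalings and filters, blocks and left-out replicates; leaving out the library with liver transcripts, the 8 libraries with a GC slope apart and the library with the highest Gadd45a was chosen after seeing the data. GC content came from GENCODE vM21 transcripts and covered 96.1% of 14182 genes. Python 3.11.15 was used for the rest.

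The members and the 16 gene lists were chosen with earlier results of these data known, so the lists are described by counts and medians without a test of the list. All 9 members are named; of a list, at most the 3 genes with the largest change among those called in a muscle and sex, with Vcam1 and Gadd45b named beyond that for their direction; and for 5 members the 5 genes with the highest mean r. One gene that this rule names is not reported here.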

Additional observations from a re-analysis of the deposited data

Results flagged for a closer look

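A library far from the others of its group was looked for in 144 combinations of gene, muscle and sex at 6 and 27 months. By Dixon's criterion on CPM, 34 (23.6%) held one. The 5% limits of this criterion are for normally distributed values, and 1 library can be flagged for several genes. The share of 23.6% was therefore not set against chance. In low libraries of the diaphragm Hdac4 stood at 1.521 CPM (female, 27 months, replicate 0), 2.875 (female, 6 months, replicate 2) and 3.002 (male, 6 months, replicate 2), where the nearest library had 16.13, 18.71 and 21.24. Hdac5 stood at 1.365, 2.499 and 0.6003 CPM in the same 3 libraries and at 2.958 in male replicate 6 of 27 months. All 4 are among the libraries with a GC slope apart. Male replicate 2 of 6 months also had the lowest Myod1 (0.9136 CPM) and the highest Dach2 and Mef2c (67.27 and 665.4 CPM) of its group, and female replicate 0 of 27 months the highest Gadd45a (8.944 CPM). Female gastrocnemius replicate 0 of 27 months, another with a GC slope apart, had the highest Hdac5 (61.49 CPM) and the lowest Mef2c (637.4 CPM). The part of the GC slope in these values was not tested beyond leaving the libraries out.

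Other libraries of 27 months were high in several members at once. Male diaphragm replicate 8 held 70.33 CPM of Gadd45a, 133.5 of Myf6 and 2.746 of Myog, where the next libraries had 6.933, 29.93 and 1.273. Female tibialis anterior replicate 7 held 73.63 CPM of Gadd45a, 22.47 of Myog and 105.7 of Hdac4. Male soleus replicate 2 held 57.4 CPM of Gadd45a and 77.01 of Hdac4, and female soleus replicate 0 held 12.93 CPM of Myog and 16.48 of Myod1. Gadd45a was 58.11 CPM in female gastrocnemius replicate 7, and Hdac4 was 131.5 CPM in male tibialis anterior replicate 6 and 78.04 CPM in male gastrocnemius replicate 6. Hdac5 was 62.45 CPM in male gastrocnemius replicate 8 and 54.62 CPM in male tibialis anterior replicate 8. Among libraries of 6 months, Hdac4 was 59.59 CPM in female gastrocnemius replicate 5, 52.35 CPM in female tibialis anterior replicate 5 and 13.14 CPM in male soleus replicate 6. Dach2 was 22.1 CPM in female tibialis anterior replicate 4, Myf6 was 74.87 CPM in male tibialis anterior replicate 6 and Mef2c was 914.5 CPM in male tibialis anterior replicate 0.

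Changes that differed between the sexes by edgeR's test of the difference, female minus male on the log2 scale, were those of Hdac9 at 21 and 24 months in gastrocnemius (-0.8827 and -0.913), soleus (-0.8827 and -0.9653) and tibialis anterior (-0.8015 and -0.741), of Hdac5 in tibialis anterior at 21, 24 and 27 months (-0.2768, -0.2974 and -0.3701), of Myod1 in tibialis anterior at 21 and 24 months (-0.9708 and -0.8179) and of Mef2c in soleus at 24 months (0.4413). There were 180 such tests of members. Between muscles, the changes of Myf6 and Gadd45a at 27 months in female mice were smaller in diaphragm than in gastrocnemius (-0.5664 and -1.3207), among 54 tests.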

How the results depend on the processing

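The 79 calls of an age change were made again under each alternative. They came to 9, 4 and 10 in male gastrocnemius, soleus and tibialis anterior, 16, 14 and 23 in the same female muscles, and 1 and 2 in male and female diaphragm. Bonferroni adjustment left 2, 1 and 1 in the male and 5, 3 and 7 in the female hindlimb muscles and 0 in the diaphragm of either sex. Asking for a fold change above 1.5 as well left 5, 2 and 4 and 5, 3 and 8. The share of all genes under both limits was at most 7.38% in any comparison, in male diaphragm at 21 months. The male diaphragm call, Gadd45a, gave 0 calls with limma-voom, DESeq2, the replicate block and the block of sample numbers and without the library with the highest Gadd45a. Female diaphragm gave 1 call with RLE scaling, with no filter on low counts and with the block of sample numbers, 8 with total count scaling, and 4 without the 8 libraries with a GC slope apart. Total count scaling moved the median of all genes by -0.255 to 0.124 in 9 comparisons, mostly of female diaphragm and soleus. Leaving out the libraries of 1 replicate number gave 0 to 1 calls in male and 0 to 3 in female diaphragm, 6 to 12 and 11 to 17 in gastrocnemius, 2 to 5 and 11 to 14 in soleus and 6 to 14 and 19 to 24 in tibialis anterior, male and female.

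Of the 79 calls, DESeq2 lost 1 and gained 7, RLE scaling lost 1 and gained 1, limma-voom and no filter lost 6 each, robust dispersion 0 and total count scaling 7 with 19 gained; 31 were lost in at least 1 fit without a replicate number. Without the 8 libraries with a GC slope apart, 0 of 28 calls in the affected fits were lost and 7 gained, 1 member changed differently between the sexes at 21 months in the diaphragm where none had, and 4 pairs of member and muscle differed from the gastrocnemius in female mice, where 2 had. That female count was 1 with limma-voom, and the male count of 0 was 1 with RLE scaling and with no filter. Correlations below 0.05 went from 25 to 16 of 48 without the 2 farthest libraries. That of Hdac4 and Gadd45a in female diaphragm changed sign, from -0.378 to 0.107 without the 2 farthest libraries and 0.444 without the 8. The causes of these shifts were not tested.

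Replicate numbers did not clearly pair the libraries. Same-numbered libraries of different ages had a mean correlation of -0.032 to 0.048, and of different muscles -0.010 to 0.117, with 6.12% to 58.8% of pairs over 0.1. Between hindlimb muscles the mean was positive for same-numbered libraries and negative for other-numbered ones, in every pair of muscles and both sexes. The highest mean, 0.117, was that of male gastrocnemius and tibialis anterior. Whether same-numbered hindlimb libraries shared a mouse was not tested. A replicate block lost 6 of the 79 calls and gained 3, with 7, 3 and 11 calls in male and 17, 14 and 22 in female hindlimb muscles.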
